A study of Sus scrofa with 13 samples.

Results

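ANK1, the gene of erythrocyte ankyrin (ENSSSCG00000007022), was followed across total RNA sequencing of 13 pig libraries. Its rows were found by that identifier, and it is 1 of 21607 Ensembl genes among the 32420 features listed in every library. Guizhou mini-pigs, a small breed, gave 11 of the libraries. They comprised longissimus dorsi, the long muscle of the back, at day 0, day 30 and day 240 after birth, and, at day 240, adipose tissue, ovary, testis, kidney, lung, spleen, liver and heart. The remaining 2 libraries were mixtures of equal amounts of RNA from multiple breeds and time points, 1 from multiple tissues and 1 from longissimus dorsi. There was 1 library per tissue, stage or mixture, with no word on how many animals it held, so differences between libraries were without a check on replicates, and no test between tissues or stages was possible. The labels name no treatment or genetic change.

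Ankyrins are adaptor proteins that tie membrane channels and transporters to the spectrin skeleton under the membrane. In red blood cells, the full-length product of ANK1 links beta spectrin (SPTB) to the anion exchanger SLC4A1, and loss of this link gives hereditary spherocytosis. Striated muscle makes short products of the same gene from an internal promoter, the small ankyrins. They sit in the membrane of the sarcoplasmic reticulum, the calcium store of the muscle fibre, and hold it to the contractile apparatus through the giant protein obscurin. The deposited values are summed per gene, so short and full-length products could not be told apart.

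Levels are given as RPKM, the reads on a gene scaled by its length and by the total reads of the library. The reads themselves could be worked back from the steps between RPKM values, and ANK1 had been normalised over a length of 8561 nt. Total reads were 21685316 to 38581416 per single tissue, 63015726 for the muscle mixture and 108337358 for the tissue mixture. Markers were checked against the labels. Highest in the labelled tissue were 10 of 10 skeletal muscle, 6 of 8 heart, 4 of 4 liver, 3 of 3 spleen, 4 of 4 lung, 4 of 4 kidney, 4 of 4 testis, 1 of 1 ovary and 2 of 2 adipose tissue markers that were paired with an identifier. The liver marker APOA1 barely set liver apart, with 13 reads or 0.364 RPKM there and 9 reads or 0.358 RPKM in ovary. The lung library also held the liver gene ALB at 343 RPKM, against 5495 RPKM in liver, so the comparison of heart with the other organs is also given without lung. Fewer cells of a type and less RNA per cell cannot be told apart in these libraries.

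ANK1 was high in striated muscle and low in every other organ. In longissimus dorsi it had 3020 reads or 9.87 RPKM at day 0 (exact Poisson 95% interval 9.52 to 10.2). It had 6243 reads or 29.8 RPKM at day 30 (29.1 to 30.6) and 8119 reads or 29.1 RPKM at day 240 (28.4 to 29.7). Heart had 6595 reads or 21.4 RPKM (20.9 to 21.9). Only counting error is covered by these intervals.

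Among the 7 organs without striated muscle, testis had the highest level, with 133 reads or 0.403 RPKM (0.337 to 0.477). It was followed by lung with 51 reads or 0.161 RPKM (0.120 to 0.212), spleen with 43 reads or 0.138 RPKM (0.0999 to 0.186) and adipose tissue with 35 reads or 0.108 RPKM (0.0754 to 0.151). Kidney had 21 reads or 0.0675 RPKM (0.0418 to 0.103) and liver 8 reads or 0.0303 RPKM (0.0131 to 0.0597). A single read was found in ovary (0.00539 RPKM, 0.000136 to 0.0300), which lies under the level of 3 reads taken as the smallest that this depth could show (0.0162 RPKM). These organs did not overlap with heart or any muscle stage. Of the summed RPKM over the 11 libraries, the 3 muscle stages held 75.5%, heart 23.5% and the 7 other organs together 1.003%.

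Ordered by level, the single-tissue libraries formed 10 neighbouring pairs, and for 6 of these the exact 95% interval of the ratio of reads held 1. Muscle at day 30 and day 240 were such neighbours, with a ratio of 1.03 (0.993 to 1.06). So were lung and spleen, spleen and adipose tissue, adipose tissue and kidney, kidney and liver, and liver and ovary, so that neighbours from lung down to ovary could not be told apart. The other neighbours differed beyond counting error. Muscle at day 240 was 1.36-fold above heart (1.31 to 1.40), heart was 2.17-fold above muscle at day 0 (2.08 to 2.27), muscle at day 0 was 24.5-fold above testis (20.6 to 29.4), and testis was 2.50-fold above lung (1.80 to 3.52). The step from muscle at day 0 to testis was thus the break in the order, with the striated libraries on one side and the other organs on the other. The lower part of the order depended on scaling, since spleen came before testis with RPKM scaled to the same total per library (0.252 and 0.238). With libraries scaled by their median ratio, lung (0.109) came after spleen (0.144) and adipose tissue (0.126), and kidney (0.0536) after liver (0.0615).

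**Figure D1:**
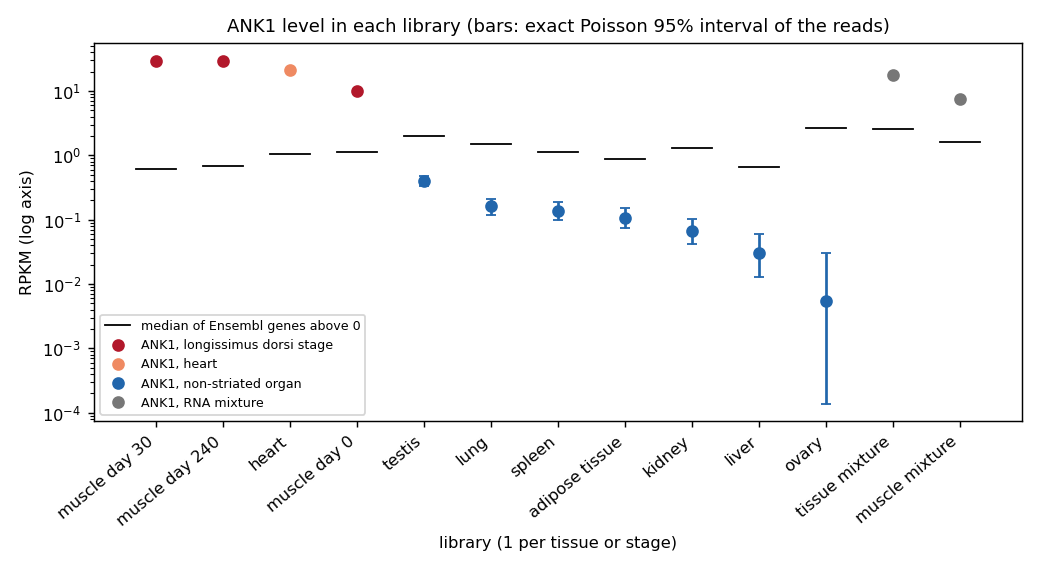
ANK1 in RPKM (log axis) in each of 13 libraries, with the single-tissue libraries ordered by level and the mixtures on the right. Points are single libraries, bars the exact Poisson 95% interval of the reads, and black lines the median of the Ensembl genes above 0 in that library. The 3 muscle stages and heart sit between 9.87 and 29.8 RPKM, above that median, and the 7 other organs between 0.00539 and 0.403 RPKM, below it.

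Within each library, ANK1 was ranked by RPKM among the 21607 Ensembl genes. It ranked 210th in muscle at day 30, with 99.0% of the other genes below it, 323rd at day 240 (98.5%) and 1289th at day 0 (94.0%). In heart it ranked 489th (97.7%). These ranks placed the gene near the top of the transcriptome of striated muscle, at 48.1 times the median of the genes above 0 at day 30, 41.7 times at day 240, 20.3 times in heart and 8.67 times at day 0. In the other organs, between 23.1% of genes in ovary and 41.2% in spleen were below ANK1, a share that consists for the most part of genes at 0. Among genes above 0 only, it was at the 23.8th percentile in testis, the 15.6th in adipose tissue, the 14.9th in spleen, the 14.3rd in lung, the 9.78th in kidney, the 5.52nd in liver and the 0.00602nd in ovary.

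The 3 stages of longissimus dorsi ask how ANK1 changes while the muscle grows after birth. As deposited, ANK1 was 3.02-fold higher at day 30 than at day 0 (2.89 to 3.16). From day 30 to day 240 the deposited level stayed within counting error, with a ratio of 0.974 (0.942 to 1.007). From day 0 to day 240 the ratio was 2.94 (2.82 to 3.07). The level at day 0 was thus the lowest of the 3, and both later stages lay close together.

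The rise was set against all Ensembl genes that reached an RPKM of 0.1 in either library, on the log2(RPKM + 0.1) scale. From day 0 to day 30, ANK1 rose by 1.59, above 94.7% of the other genes among 12827 compared, whose median difference was -0.75 with quartiles of -1.47 and 0.13. At least 2-fold higher at day 30 were 1465 genes (11.4% of those compared), and 5286 (41.2%) were at least 2-fold lower. From day 30 to day 240, the difference of ANK1 was -0.04, at the 42.9th percentile of 12380 genes with a median of 0.16, where 20.6% were at least 2-fold higher and 18.2% at least 2-fold lower. From day 0 to day 240, ANK1 rose by 1.55, at the 94.9th percentile of 12594 genes with a median of -0.65, where 10.4% were at least 2-fold higher and 36.8% at least 2-fold lower.

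Listed features held 14.8% of the total reads at day 30, against 20.4% at day 0 and 21.9% at day 240, and the size of the rise depended on how the libraries were scaled. With libraries scaled by their median ratio over 10454 genes, the median difference of all genes from day 0 to day 30 was 0.03 in place of -0.75, and 23.6% of genes were at least 2-fold higher and 19.9% lower. ANK1 rose by 2.48 with this scaling, and by 2.18 with RPKM scaled to the same total. Relative to the median of all genes, the rise was 2.34 as deposited, 2.45 with the median ratio and 2.42 with the same total, at the 94.7th, 95.2nd and 95.6th percentile. From day 30 to day 240, ANK1 fell by 0.71 with the same total, where 9.69% of genes were at least 2-fold higher and 31.3% lower, and fell by 0.18 with the median ratio. Relative to the median of all genes, it fell by 0.19 as deposited, fell by 0.27 with the same total and fell by 0.21 with the median ratio. From day 0 to day 240, the rise relative to the median was 2.20, 2.17 and 2.29, respectively, and with the median ratio 21.1% of genes were at least 2-fold higher and 20.0% lower.

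**Figure D2:**
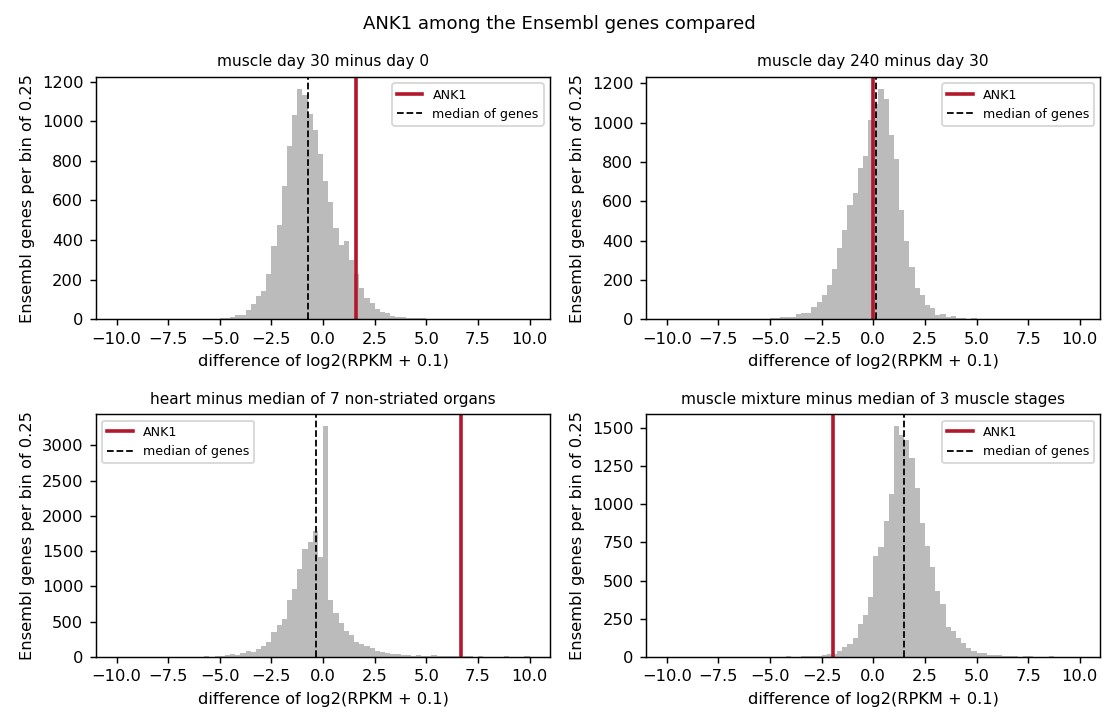
Number of Ensembl genes (y axis, per bin of 0.25) by their difference of log2(RPKM + 0.1) (x axis) in 4 comparisons, with ANK1 as a red line and the median of the genes as a dashed line. ANK1 lies at 1.59 from day 0 to day 30, at -0.04 from day 30 to day 240, at 6.69 in heart against the non-striated organs and at -1.93 in the muscle mixture against the muscle stages, far from the median in all but the second.

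Genes that work with ANK1 in muscle were taken as fixed lists, and 71 of 117 list symbols were paired with a listed identifier. Obscurin and titin, which bind or neighbour small ankyrin 1, were not paired and were not analysed here. Of the other ankyrins and spectrins, 4 of 4 compared were within 2-fold from day 0 to day 30, with a median difference of 0.14. Over all genes, 11.4% were at least 2-fold higher and 41.2% lower, with a median of -0.75. ANK2, the ankyrin of cardiac and neuronal membranes, was 4.60, 4.61 and 6.06 RPKM at day 0, day 30 and day 240. ANK3, the ankyrin of axons and epithelia, was 4.78, 4.25 and 6.22 RPKM. SPTB, the beta spectrin of red cells and muscle, was 4.72, 8.94 and 2.73 RPKM, so that it was highest at day 30 and at least 2-fold lower at day 240. With libraries scaled by their median ratio, 2 of the 4 were at least 2-fold higher at day 30, where 23.6% of all genes were.

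Of the 5 partners of small ankyrin 1 that were paired, none was at least 2-fold higher at day 30 and 2 were lower. Over all genes compared, 11.4% were at least 2-fold higher and 41.2% lower, so the 2 lower partners were near that share. The median difference of the 5 was -0.95 against -0.75 for all genes. The 2 were KCTD6, with 3.62, 1.20 and 1.17 RPKM at the 3 stages, and CUL3, with 5.49, 1.62 and 4.58 RPKM. TCAP, at -0.95, was within 2-fold. With the median ratio, 0 of these 5 were at least 2-fold lower and 1 was higher, and with the same total 1 was lower and 1 higher. TCAP, the cap of titin at the Z-disc, was 94.6, 48.9 and 25.01 RPKM at day 0, day 30 and day 240, highest where ANK1 was lowest. ATP2A1, the calcium pump of the sarcoplasmic reticulum in fast fibres, was 213, 352 and 351 RPKM, a difference of 0.72 to day 30 and of -0.01 from then to day 240. OBSL1, a relative of obscurin, was 1.93, 1.56 and 1.011 RPKM.

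In the sarcoplasmic reticulum and triad list, 1 of 9 genes was at least 2-fold higher at day 30 and none was lower, with a median difference of 0.37. Over all genes, 11.4% were at least 2-fold higher and 41.2% lower, so the 1 higher gene was near that share. With the same total, 4 of 9 were at least 2-fold higher, where 18.1% of all genes were. With the median ratio it was 6 of 9, where 23.6% of all genes were. CASQ1, the calcium store protein of skeletal fibres, was 209.8, 420.1 and 642 RPKM at the 3 stages and was the member past 2-fold. CACNA1S, the voltage sensor of the skeletal triad, was 17.9, 35.6 and 25.2 RPKM. TRDN, which anchors the calcium release channel, was 378, 488 and 526 RPKM, and SRL, a calcium-binding protein of the reticulum lumen, was 16.0, 29.1 and 15.6 RPKM. No gene of this list was above ANK1 in its difference from day 0 to day 30. By day 240, 3 of 9 were at least 2-fold higher than at day 0, where 10.4% of all genes were. With the median ratio it was 7 of 9, where 21.1% of all genes were. As deposited, 1 of the 3, CASQ1 with a difference of 1.61, was above ANK1 with 1.55. Of 10 skeletal muscle fibre genes, 2 were at least 2-fold higher at day 30 and none was lower, against 11.4% and 41.2% of all genes. With the median ratio, 5 of 10 were higher, where 23.6% of all genes were. The 2 as deposited were MYH3, which rose by 1.11, and MYBPC2, a myosin-binding protein of fast fibres. MYBPC2 rose from 43.6 to 152.9 RPKM, by 1.81 on the log2 scale, more than ANK1. Reads of myosin heavy chain genes such as MYH3 and MYH8 may be shared among near-identical copies, so their values are uncertain.

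Heart was set against the 7 non-striated organs at 240 days. Its 21.4 RPKM was 53.2-fold above testis (44.8 to 63.6), the highest of them, and 133-fold above lung (100.9 to 179) and 155-fold above spleen (115 to 215). It was 706-fold above liver (358 to 1637). Against the 7 organs pooled, with 292 reads or 0.143 RPKM, the ratio was 149.8 (133 to 169). The ratio to ovary, with its single read, was 3975 with an interval of 713 to 157030. Heart was thus higher than each of the 7 organs well beyond counting error, and these ratios do not cover differences between animals.

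On the log2(RPKM + 0.1) scale, which understates ratios to such low levels, ANK1 in heart was 6.69 above the median of the 7 organs. Of the other genes among 18535 compared, 99.6% had a smaller difference and 66 had one at least as large. Over all genes the median was -0.36, with 1858 genes (10%) at least 2-fold higher and 5135 (27.7%) at least 2-fold lower in heart. With the median ratio, these shares were 15.004% and 17.3%. Leaving out each of the 7 organs gave differences of 6.59 to 6.85 for ANK1, with 6.85 without lung, and against the highest of the 7 organs it was 5.42.

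Other ankyrins and spectrins were also higher in heart, by less. Of 5 compared, 3 were at least 2-fold above the median of the 7 organs, namely SPTB with 3.90 RPKM in heart and a difference of 4.92, ANK3 with 14.9 RPKM and 3.39, and ANK2 with 5.05 RPKM and 2.65. ANK3 in kidney (13.5 RPKM) was close to its level in heart, whereas ANK1 was 0.0675 RPKM in kidney. In the sarcoplasmic reticulum list, 7 of 9 were at least 2-fold higher and 1 lower, with a median difference of 5.18, and 3 of 9 were above ANK1. These were HRC, a histidine-rich calcium-binding protein of the reticulum (173 RPKM in heart), TRDN (130.3 RPKM) and SRL (21.3 RPKM). Genes of the erythroid list differed among themselves. SLC4A1, the anion exchanger that red cell ankyrin binds, was 0.00586 RPKM in heart, 2.93 RPKM in kidney and 0.504 RPKM in spleen. EPB42, a membrane skeleton protein of red cells, was 0.0269 RPKM in heart and 0.332 RPKM in spleen. Of 10 erythroid genes compared, 3 were at least 2-fold higher in heart (HBB, ALAS2 and DMTN) and none was lower. The median of the 10 was -0.41 against -0.36 for all genes. Over all genes, 1858 of 18535 compared were at least 2-fold higher in heart and 5135 were lower. With the median ratio, 15.004% of all genes were higher and 17.3% lower.

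Muscle at day 240 was then set against heart, the other striated tissue. ANK1 was 1.36-fold higher in muscle, 0.44 on the log2(RPKM + 0.1) scale, at the 78.7th percentile of 13207 genes with a median of -0.63, where 12.4% were at least 2-fold higher and 39.2% lower in muscle. It lay within 2-fold as deposited, and at 1.05, past 2-fold, with the median ratio, where 21.5% of genes were at least 2-fold higher and 28.8% lower. The markers that define the tissues lay far apart. All 10 skeletal fibre genes were at least 2-fold higher in muscle, with a median of 8.69, and all 8 heart genes were lower, with a median of -5.29. Of the 9 reticulum genes, 5 were at least 2-fold higher in muscle, 1 was lower and 3 were within 2-fold. CASQ1 was 642 RPKM in muscle and 3.03 RPKM in heart, and RYR2, the calcium release channel of heart, was 0.519 and 121 RPKM. SRL (15.6 and 21.3 RPKM) and HRC (108 and 173 RPKM) were within 2-fold, as was ANK1. Against the median of the 7 non-striated organs, ANK1 in muscle at day 240 was 7.13 higher, at the 99.6th percentile of 18521 genes, where 7.60% were at least 2-fold higher and 43.8% lower (17.0% and 25.4% with the median ratio).

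The restriction of ANK1 to striated tissue was also measured with tau over the 9 organs at 240 days, muscle included, an index that runs from 0, for a gene at one level throughout, to 1, for a gene confined to 1 organ. Tau was 0.771 for ANK1, above 82.8% of 15252 Ensembl genes that reached an RPKM of 1 in any organ, whose median was 0.430. Since ANK1 was high in 2 of the 9 organs, tau could not come near 1.

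**Figure D3:**
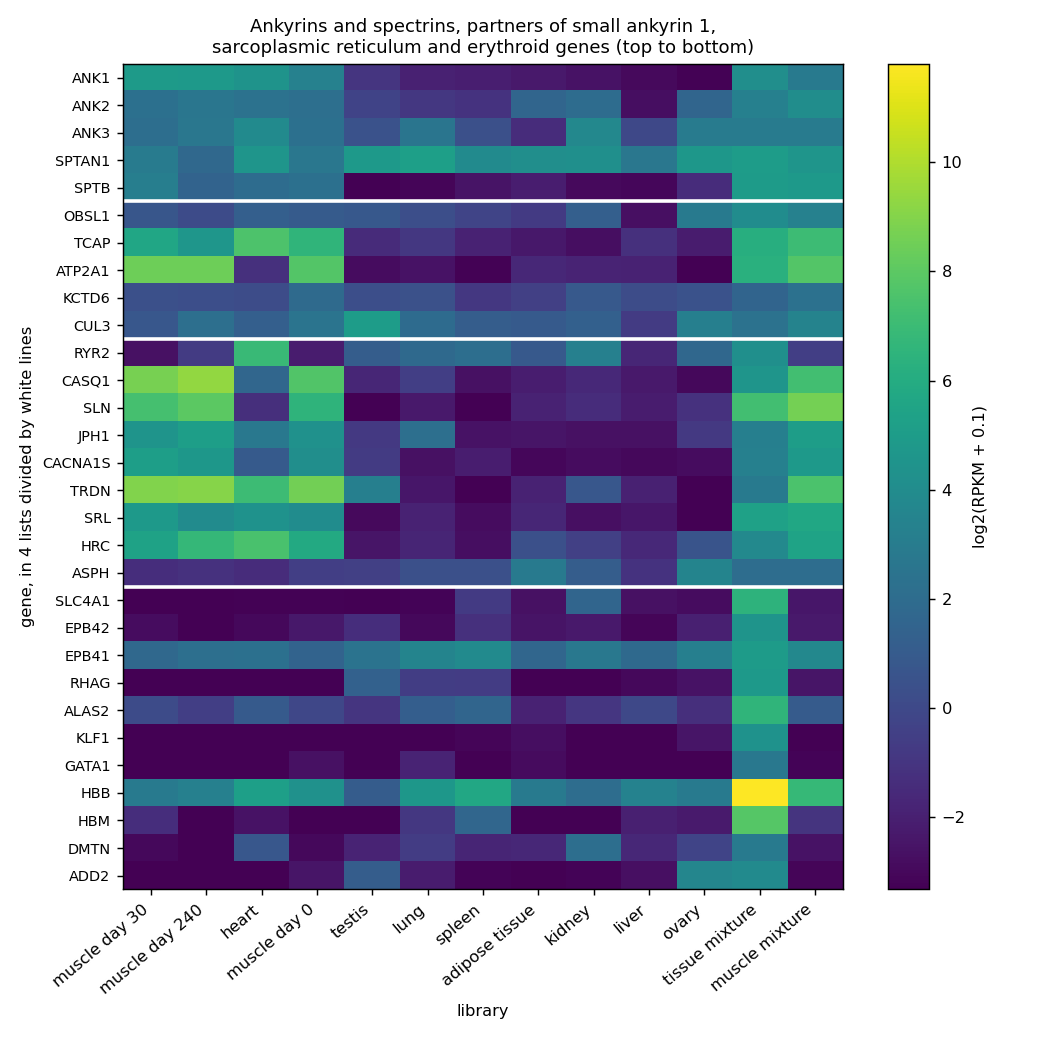
Level as log2(RPKM + 0.1) (colour) of listed genes (rows) in 13 libraries (columns), in 4 lists from top to bottom: ankyrins and spectrins, partners of small ankyrin 1, sarcoplasmic reticulum and triad, and erythroid genes. In the single-tissue libraries, ANK1 in the first row is bright in the 4 striated libraries as are TCAP, TRDN and HRC, and the erythroid rows are bright in the tissue mixture.

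The genes whose pattern was most like that of ANK1 were found with Pearson's r of log2(RPKM + 0.1) over the 11 single-tissue libraries, among 15323 other genes that reached an RPKM of 1 in any of them. The points share the contrast of 4 striated with 7 other libraries, so r is high for any gene with that contrast and is given as a description. It was at least 0.9 for 103 genes and at least 0.95 for 53. The highest 10 were ENSSSCG00000007017 (0.989), FSD2 (0.985), ENSSSCG00000025811 (0.984), MYOM1 (0.984), SYNPO2L (0.979), ENSSSCG00000008806 (0.979), NRAP (0.979), ENSSSCG00000006036 (0.976), SMYD1 (0.976) and SRL (0.976). MYOM1 is a protein of the M-band that crosslinks myosin, NRAP takes part in the assembly of myofibrils, and SMYD1 is a methyltransferase of striated muscle. The 4 genes given by identifier had no symbol in the table used.

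The closest of them, ENSSSCG00000007017, was 66.8 RPKM at day 0, 166 RPKM at day 30 and 144.8 RPKM at day 240 in muscle and 179.9 RPKM in heart, and at most 0.527 RPKM in the other organs. It rose by 1.32 on the log2 scale from day 0 to day 30 and fell by 0.20 from then to day 240, where ANK1 rose by 1.59 and fell by 0.04. Its identifier is 5 numbers from that of ANK1, and whether the genes are neighbours or overlap was not tested. Of the 10 genes, it and NRAP were at least 2-fold higher at day 30 than at day 0 as deposited. With the same total 5 of 10 were, and with the median ratio 8 of 10. Over all genes compared, the shares were 11.4%, 18.1% and 23.6%, respectively. The muscle stages were among the libraries used to choose the 10 genes, so their rise is given as a description only. NRAP was 16.6, 52.3 and 41.3 RPKM at day 0, day 30 and day 240. MYOM1 was 45.9, 81.3 and 101 RPKM at the 3 stages, and FSD2 was 12.8, 12.9 and 34.3 RPKM. With Spearman's rho in place of r, 0 of the 10 genes were among the highest 10, with a pseudocount of 1 it was 9, and with RPKM scaled to the same total 7.

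**Figure D4:**
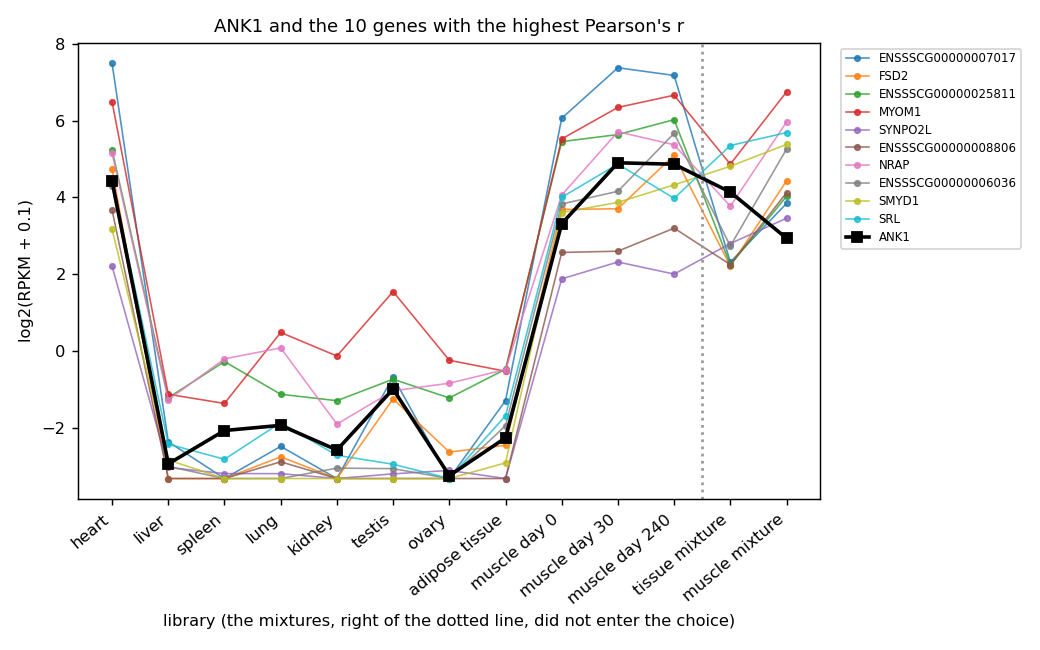
Level as log2(RPKM + 0.1) (y axis) of ANK1 (black squares) and the 10 genes most like it (coloured lines) in each library, where the mixtures right of the dotted line did not enter the choice. All are high in heart and the 3 muscle stages, and ANK1 is the lowest of the 11 genes in the muscle mixture, at 7.56 RPKM.

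The mixtures were compared after their values had been seen. In the muscle mixture, ANK1 had 4080 reads or 7.56 RPKM (7.33 to 7.80), at the 86.7th percentile of Ensembl genes. This was below all 3 stages of longissimus dorsi, with a ratio of 0.766 to day 0 (0.731 to 0.804), 0.254 to day 30 (0.244 to 0.264) and 0.260 to day 240 (0.251 to 0.270). Most genes were placed the other way. On the log2(RPKM + 0.1) scale, the median of 15162 genes in the muscle mixture was 1.51 above the median of the 3 stages, 69.7% were at least 2-fold higher and 1.66% at least 2-fold lower. ANK1 was at -1.93, with 0.350% of the other genes below it. With the median ratio, ANK1 was at -3.70, where 25.1% of genes were higher and 14.3% lower, and with the same total at -2.14, where 53.9% were higher and 3.02% lower. Against day 0 with only 1 of the later stages, the difference was -1.15 or -1.17.

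Of the 15162 genes, 341 (2.25%) were below all 3 stages in the muscle mixture. Among 1150 genes with RPKM of at least 5 in all 3 stages, a set in which ANK1 falls, 126 (10.96%) were. Muscle genes differed in this as deposited. None of the 5 other ankyrins and spectrins and none of the 5 partners of small ankyrin 1 were below all 3 stages, and SPTB was 29.2 RPKM and TCAP 132 RPKM. Of the reticulum list, 2 of 9 were, CASQ1 with 149.8 RPKM and TRDN with 184 RPKM, and of the skeletal fibre list 3 of 10, MYH8, TNNC2 and TNNT1. As deposited, none of these lists had a member with a lower difference than ANK1. These counts depended on scaling. With the median ratio, 21.6% of all genes compared were below all 3 stages, as were 1 of the 5 ankyrins and spectrins, 1 of the 5 partners, 5 of 9 reticulum genes and 5 of 10 fibre genes. With the same total, 5.402% of all genes were, with 0, 1, 3 and 3 in these lists. Of the 10 genes most like ANK1, 2 were below all 3 stages. These were ENSSSCG00000025811 with 16.2 RPKM and ENSSSCG00000007017 with 14.3 RPKM, and the latter was at -3.34, lower than ANK1. The summed RPKM of the 10 skeletal fibre genes was 11662 for the muscle mixture, 11918 at day 0, 11199.6 at day 30 and 22368 at day 240. As deposited, this puts the mixture between day 30 and day 0, a place that depended on scaling. The same total multiplies the mixture by 0.740 and day 0, day 30 and day 240 by 0.908, 1.377 and 0.861. The median ratio multiplies them by 0.518, 1.064, 1.978 and 1.796. With either scaling, the sum of the mixture falls below all 3 stages. Breeds, ages and shares of the RNA in the mixture cannot be told apart.

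In the tissue mixture, ANK1 had 16262 reads or 17.5 RPKM (17.3 to 17.8), at the 94.3rd percentile, which was 2.32-fold above the muscle mixture (2.24 to 2.40). On the log2(RPKM + 0.1) scale it was 1.20 higher, at the 61.4th percentile of 17457 genes with a median of 0.82, where 44.4% were at least 2-fold higher and 6.14% lower (27.7% and 12.7% with the median ratio, where ANK1 was at 0.69). Genes of skeletal and heart muscle differed in direction. Of 10 skeletal fibre genes, 8 were at least 2-fold lower in the tissue mixture and none was higher, with a median of -1.97, and of 9 reticulum genes 6 were lower and 1 higher. Of 8 heart muscle genes, 5 were at least 2-fold higher and none was lower, with a median of 3.06. All 11 erythroid genes were at least 2-fold higher, with a median of 6.78. HBB, the beta chain of haemoglobin, was 3577 RPKM in the tissue mixture and 113 RPKM in the muscle mixture. SLC4A1 was 89.2 and 0.0903 RPKM, EPB42 22.8 and 0.107 RPKM, RHAG, a membrane protein of red cells, 29.3 and 0.0832 RPKM, and ALAS2, the first enzyme of haem synthesis in erythroid cells, 96.4 and 1.96 RPKM. SPTB was 30.8 and 29.2 RPKM.

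The 11 erythroid genes summed to 4119 RPKM in the tissue mixture and 129 RPKM in the muscle mixture, and to between 10.8 and 75.5 RPKM in the single-tissue libraries, highest in spleen. None of the 11 was at 0 in the tissue mixture. In muscle, 3 of 11 were at 0 at day 0, 5 at day 30 and 8 at day 240, the last including SLC4A1, EPB42, RHAG, KLF1 and GATA1. In heart, 4 of 11 were at 0 and SLC4A1 had 1 read. Between 1 and 4 of 11 were at 0 in the 7 organs where ANK1 was low. Many genes of any kind were at 0. Of the 21607 Ensembl genes, 13238 were above 0 at day 0, 13822 at day 30 and 13118 at day 240. In heart 13928 were above 0, in the 7 organs 14404 to 17224 and in the tissue mixture 19189. HBB was 7.27 to 19.6 RPKM in the muscle stages and 36.3 RPKM in heart, and EPB41, a skeleton protein also made outside red cells, was 2.69 to 4.57 RPKM and 4.64 RPKM. Spleen, with the highest erythroid sum of the single tissues, had 0.138 RPKM of ANK1. HBB made up 52.7 RPKM of that sum and EPB41 15.2 RPKM. Without HBB, the sum was 22.9 RPKM in spleen and 22.7 RPKM in ovary. Most of the ovary sum was ADD2 with 12.0 RPKM and EPB41 with 9.14 RPKM. SLC4A1 and RHAG were 0.0389 and 0.0691 RPKM in ovary and 0.504 and 0.535 RPKM in spleen. The high erythroid values of the tissue mixture stood beside its ANK1 level, and their part in it was not tested.

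**Figure D5:**
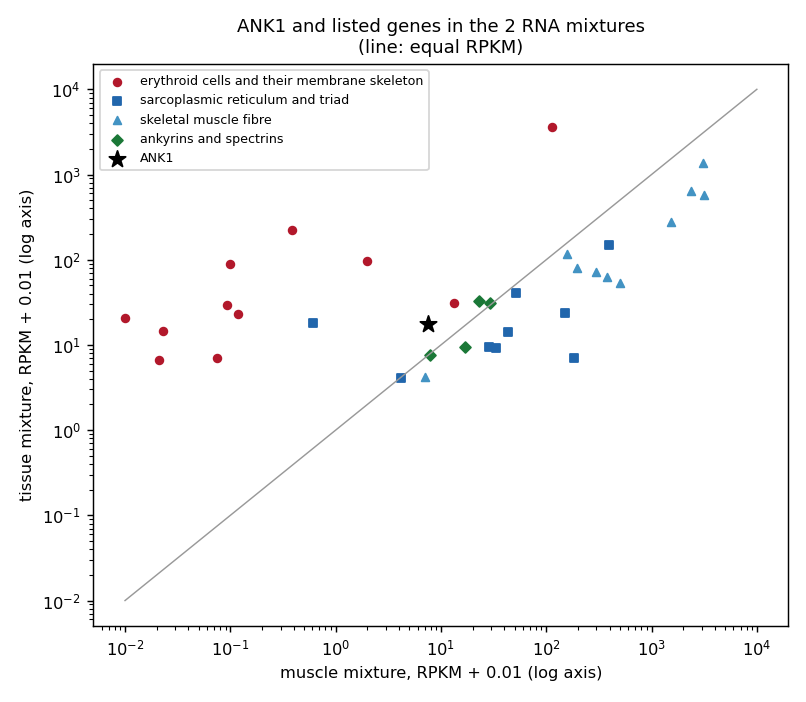
RPKM + 0.01 in the tissue mixture (y axis, log) against the muscle mixture (x axis, log) for ANK1 (star) and the members of 4 gene lists, with a line of equal RPKM. The 11 erythroid genes lie above the line, the skeletal fibre genes below it, and ANK1 lies just above it at 17.5 and 7.56 RPKM.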

How the data were processed

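Total RNA of 13 pig libraries was depleted of ribosomal RNA and sequenced as strand-specific paired ends by either of 2 protocols, SMART or dUTP, without a statement of which library had which. The authors deposited RPKM per feature. The submitters' processing notes name TopHat 1.3.2 and Cufflinks, and the methods of the study name htseq-count for reads of lncRNAs. The genome build and the reads that make up the total are not given in the sources used here. Since the total exceeds the reads on listed features, RPKM depends on the share of reads that these features hold.

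Total reads were recovered from ratios of RPKM between libraries and between features. They were within 1.94e-07 of whole numbers, and a length that gave whole reads (tolerance 1e-08) was found for all 29462 features above 0. Recovery of reads and the 2-fold limit were tried on simulated data with counting error only. Differences between animals or protocols were not simulated, so the trial cannot show how far single libraries differ through them. RPKM was compared as log2(RPKM + 0.1) with a limit of 2-fold, for genes with RPKM of at least 0.1 in a library compared. Alternatives were other pseudocounts and filters, and RPKM scaled to the same sum or to the median ratio of the 10454 genes above 0 in all 11 single-tissue libraries. Ratios have exact conditional binomial 95% intervals and levels exact Poisson 95% intervals. Symbols were available for 11654 of 21607 identifiers. Genes named were ANK1, up to 8 members per list with the highest RPKM in muscle at day 240, heart or, for erythroid genes, spleen, and the 10 genes with the highest Pearson's r. ALB, APOA1, KLF1, GATA1 and ADD2 were named after their values were seen. The comparisons of mixtures and the scaled counts of genes below all 3 stages and of the 10 genes most like ANK1 were added then. ANK1 and the lists were chosen with earlier results of these data known. Values of 1 listed gene are not reported here, though it is in the counts of its list. Sequences and coordinates were not used here. Python 3.11.15, numpy 2.4.6, pandas 2.3.3 and scipy 1.17.1 were used.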

Additional observations from a re-analysis of the deposited data

How the results depend on the processing

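No paired analysis was possible because there was 1 library per tissue or stage. The 8 comparisons tried kept their direction for ANK1 under both scalings and both other pseudocounts, whereas the order among the 7 non-striated organs did not. With RPKM scaled to the same total, ANK1 was 20.0 RPKM in heart, 0.252 in spleen, 0.222 in lung, 0.238 in testis, 0.183 in adipose tissue, and 8.96, 41.1 and 25.02 in muscle at day 0, day 30 and day 240. With the median ratio it was 25.2 in heart, 0.0615 in liver, 0.109 in lung, 0.204 in testis, and 10.49, 59.0 and 52.2 in muscle.

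On the log2 scale with the same total and with the median ratio, respectively, the difference was 2.18 and 2.48 for day 30 against day 0, -0.71 and -0.18 for day 240 against day 30, and 1.47 and 2.30 for day 240 against day 0. It was 0.32 and 1.05 for muscle at day 240 against heart, 6.47 and 7.97 for muscle against the 7 organs, -2.14 and -3.70 for the muscle mixture against the stages, and 1.07 and 0.69 for the tissue mixture against the muscle mixture. For heart against the 7 organs it was 6.15 with the same total and 5.42 against the highest organ. With a pseudocount of 1 it was 1.504 for day 30 against day 0, 1.47 for day 240 against day 0, 4.34 for heart, 4.76 for muscle against the 7 organs, -1.81 for the muscle mixture and 1.11 between the mixtures. With a pseudocount of 0.01 it was 7.501 for heart and 7.94 for muscle against the 7 organs. The values without 1 stage each ranged from -1.95 to -1.15 for the muscle mixture. Tau was 0.856 with a pseudocount of 1 and 0.635 with 0.01.

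Among genes above 0 and among genes of at least 1 RPKM in a library, respectively, the percentile of ANK1 was 96.5 and 96.8 in heart, 5.52 and 18.1 in liver, 14.9 and 22.0 in spleen, 14.3 and 12.5 in lung, 9.78 and 13.2 in kidney, 23.8 and 18.3 in testis, 0.00602 and 6.80 in ovary, and 15.6 and 19.6 in adipose tissue. In muscle it was 90.3 and 91.6 at day 0, 98.5 and 98.6 at day 30 and 97.5 and 97.9 at day 240, and in the mixtures 93.6 and 92.1 (tissues) and 83.3 and 81.3 (muscle). The percentile of the rise from day 0 to day 30 ranged from 90.4 with a pseudocount of 0.01 to 99.3 with 1.

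With a pseudocount of 1, the numbers of genes past 2-fold went from 1465 to 271 higher and 5286 to 2311 lower for day 30 against day 0, 2551 to 828 and 2258 to 376 for day 240 against day 30, 1313 to 338 and 4639 to 1544 for day 240 against day 0, 1858 to 952 and 5135 to 1502 for heart, and 1640 to 632 and 5171 to 1739 for muscle against heart. For muscle against the 7 organs they went from 1408 to 855 and from 8116 to 3186, for the muscle mixture from 10572 to 5528 and from 252 to 119, and between the mixtures from 7752 to 4106 and from 1072 to 674. With the median ratio they were 3032 higher and 2547 lower at day 30 than day 0, 2660 and 2517 at day 240 than day 0, 3154 and 4699 for muscle against the 7 organs, 3811 and 2167 for the muscle mixture, and 4832 and 2223 between the mixtures, with 3211 lower for heart and 2842 higher for muscle against heart. With the same total they were 2321 and 3213 at day 30 than day 0, 1200 and 3876 at day 240 than day 30, and 458 lower for the muscle mixture. Among genes of at least 1 RPKM they were 498 higher at day 30 than day 0, 1557 and 783 at day 240 than day 30, 557 and 2773 at day 240 than day 0, and 956 and 2814 for muscle against heart. Depth limits the organs with few reads of ANK1, above all ovary and liver.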
